A study of Mus musculus with 9 samples.

Results

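The nuclear-encoded genes of the mitochondrial respiratory chain were followed through the cell types, regions and genotypes of the mouse forelimb bud. Members were chosen by symbol alone, as genes named Ndufa, Ndufb, Ndufs or Ndufv with a number, Uqcr, Cox4 to Cox8 or Atp5, without pseudogenes, antisense transcripts and Riken clones, and no expression value entered the rule. It took 77 of the 32289 features counted, 33 of complex I, 8 of complex III, 18 of complex IV, 17 of ATP synthase (complex V) and *Ndufa4*, which bears a complex I name but is known as a subunit that joins complex IV. Forelimb buds for single-cell RNA-seq libraries were taken from embryos of E10.75, which had 37 to 39 somites. They were wild-type (Wt) or homozygous for one of the alleles *EC1CRM8*Δ/Δ, here *E1C8*Δ/Δ, or *EC1CRM5*Δ/Δ, here *E1C5*Δ/Δ, all in a Swiss Albino background, with 3 libraries per genotype and 1 pair of forelimb buds per library. Both mutants are homozygous for deletions of limb bud enhancers of *Grem1*, the gene of a secreted BMP antagonist, and share the EC1 deletion. They differ in the further element that is removed, CRM8 or CRM5, and both grow tetradactyl limbs. Wt embryos carry neither allele. Buds were used whole, so each library holds mesenchyme with the other lineages of the bud.

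The respiratory chain passes electrons from NADH and succinate to oxygen and uses the energy released to pump protons across the inner mitochondrial membrane, and ATP synthase makes ATP as protons flow back. Complex I takes electrons from NADH, complex III passes them from ubiquinol to cytochrome c, and complex IV hands them to oxygen. The catalytic cores of these complexes contain proteins made inside mitochondria, whereas most subunits, the members described here, come from nuclear genes and are imported. Several complex IV subunits exist as paralogues with tissue-restricted expression, such as the heart and muscle forms *Cox6a2*, *Cox7a1* and *Cox8b* and the form *Cox4i2*, known for its expression in lung and its response to low oxygen.

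A window of 300 bases (250 before and 50 after the transcription start, RefSeq, GRCm38.p6) was found by symbol for 62 of the 77 members. Nuclear respiratory factor 1 (NRF1) and factors of the ETS family are known to bind promoters of respiratory chain genes. The NRF1 word GCATGCGC, searched on both strands, occurred in 9 of the 67 windows of these members (13.4%), of which 5 members have 2, and in 2.71% of all 32851 windows of this length. The ETS word CCGGAAGT occurred in 5 member windows (7.46%, all windows 3.89%), and the YY1 word AAGATGGC in 8 (11.9%, all windows 2.75%). These matches of letters were counted in the reference sequence and no binding was measured. Stretches upstream of the start of 5 members are printed to show where the words lie, 1 for complex I, 2 for complex III, 1 for complex IV and 1 for complex V. Letters are in lower case and the NRF1 word or, in *Uqcrh* and *Uqcr11*, the ETS word is in capitals, in *Uqcrh* as its reverse complement, since the word lies on the other strand there. They lie at chr17:56717512-56717761, plus strand for *Ndufa11*, chr4:116075072-116075320, minus strand for *Uqcrh*, chr10:80406831-80407071, minus strand for *Uqcr11*, chr5:115348982-115349208, minus strand for *Cox6a1* and chr9:44920743-44920992, minus strand for *Atp5l*. In *Ndufa11* and *Cox6a1* the word lies on both strands, overlapping itself.
Ndufa11: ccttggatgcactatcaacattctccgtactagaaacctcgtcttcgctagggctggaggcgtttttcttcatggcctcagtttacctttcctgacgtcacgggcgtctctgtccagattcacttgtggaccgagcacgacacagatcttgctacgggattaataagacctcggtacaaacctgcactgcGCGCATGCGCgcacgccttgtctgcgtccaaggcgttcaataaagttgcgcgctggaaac
Uqcrh: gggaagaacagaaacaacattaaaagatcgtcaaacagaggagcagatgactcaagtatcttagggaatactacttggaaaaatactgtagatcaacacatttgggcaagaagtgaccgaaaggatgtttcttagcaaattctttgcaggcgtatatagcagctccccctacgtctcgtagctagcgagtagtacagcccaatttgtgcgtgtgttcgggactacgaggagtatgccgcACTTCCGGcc
Uqcr11: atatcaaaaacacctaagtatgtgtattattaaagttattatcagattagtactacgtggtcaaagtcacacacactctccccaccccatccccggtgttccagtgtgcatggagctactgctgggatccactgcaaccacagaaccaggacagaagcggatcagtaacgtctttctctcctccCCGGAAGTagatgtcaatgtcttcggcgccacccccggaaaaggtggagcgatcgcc
Cox6a1: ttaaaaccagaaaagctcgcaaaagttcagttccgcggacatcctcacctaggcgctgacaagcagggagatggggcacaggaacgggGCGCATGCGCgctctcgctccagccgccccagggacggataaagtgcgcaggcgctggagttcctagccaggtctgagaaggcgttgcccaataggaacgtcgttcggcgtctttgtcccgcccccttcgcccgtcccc
Atp5l: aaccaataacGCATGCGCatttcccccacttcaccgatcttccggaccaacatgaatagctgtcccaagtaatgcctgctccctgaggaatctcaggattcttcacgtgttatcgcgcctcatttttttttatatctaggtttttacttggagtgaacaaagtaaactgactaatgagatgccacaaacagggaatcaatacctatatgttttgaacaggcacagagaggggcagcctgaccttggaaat

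After the filters of the study and removal of 7778 doublets, 44654 cells were left of 133086 barcodes, with 592 in *E1C8*Δ/Δ replicate 1, 897 in Wt replicate 3 and 2100 to 8699 in the other libraries, at medians of 16851 to 48041 UMIs per cell. Cells were assigned by the UMIs (unique molecular identifiers, each standing for 1 captured transcript) of marker lists that hold no member, which gave 37099 mesenchymal cells, 2308 muscle progenitors, 2202 erythroid cells, 647 endothelial cells, 518 ectodermal cells and 159 macrophages. A cell type entered where a library held at least 20 of its cells, which is 9 libraries for mesenchyme and muscle progenitors, 7 for erythroid cells and endothelium, 6 for ectoderm and 4 for macrophages (Wt replicate 1, *E1C5*Δ/Δ replicate 1 and 2 of *E1C8*Δ/Δ, replicates 2 and 3). Mesenchymal UMIs ranged from 17762676 to 267317006 per library. All genes of the marker lists were counted, and in its own type each list took at least 9.01 UMIs per 10000. Globin, 43.6% of erythroid UMIs, made up 0.076% of mesenchymal and 0.272% of endothelial UMIs, and the parts of free RNA and of doublets in this were not tested. Between libraries, 225 of 44427 distinct barcodes were shared. Y-linked genes were present in all 3 Wt libraries, and none of these had *Xist* above 100 CPM, a level passed by 2 of 3 libraries of each mutant. CPM is the number of UMIs of a gene per 1000000 UMIs of a cell type in a library. Sex is therefore not balanced over the genotypes, and X and Y genes stayed out of the genotype tests. *Grem1*, whose enhancers are deleted, was at 43.7, 28.9 and 32.3 CPM in Wt mesenchyme, 11.4, 11.1 and 13.9 in that of *E1C8*Δ/Δ and 17.0, 16.3 and 25.01 in that of *E1C5*Δ/Δ embryos.

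In mesenchyme the 77 members together took 2.49% ± 0.185 (SD, n = 9) of all UMIs. ATP synthase genes held 0.890%, complex IV 0.652%, complex I 0.640% and complex III 0.238%. The 13 chain genes of the mitochondrial genome held 3.17%. Among members of the complexes the highest levels in Wt mesenchyme were those of *Cox7c*, a small subunit of complex IV, with 1157 ± 198 CPM (SD, n = 3), *Atp5g2*, a gene of the membrane c-ring of ATP synthase, with 807 ± 15.7, *Uqcrh*, the hinge protein of complex III, with 579 ± 16.2, and *Ndufa2* of complex I with 395 ± 34.6. A transcript gives 1 UMI at its 3′ end whatever its length, but capture may differ between genes.

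The share of all UMIs in members was highest in muscle progenitors. It was 3.11% ± 0.198 (SD, n = 9) there, 2.72% ± 0.183 (n = 4) in macrophages, 2.68% ± 0.246 (n = 7) in endothelium, 2.46% ± 0.197 (n = 6) in ectoderm and 1.77% ± 0.162 (n = 7) in erythroid cells. Within libraries, muscle progenitors stood 1.20 to 1.30 times above the mesenchyme of the same buds, in 9 of 9 libraries. Macrophages were above it in 4 of 4 libraries (1.05 to 1.12 times) and endothelium in 7 of 7 (1.01 to 1.10 times), while ectoderm was below in 6 of 6, at 0.973 to 0.995 of the mesenchymal share. Between libraries the values of macrophages, endothelium, mesenchyme and ectoderm overlapped, and macrophages were above endothelium in 2 of the 4 libraries that held both, so that their order was not settled. The share in erythroid cells depended on the total. It was 0.668 to 0.777 of the mesenchymal share of all UMIs, and with globin and mitochondrially encoded UMIs taken out of the total it was 3.32% ± 0.284 (n = 7) in erythroid cells against 2.58% in mesenchyme. On that total erythroid cells had the highest mean, but their libraries overlapped with those of muscle progenitors (2.91% to 3.50%). The share by genotype in mesenchyme was 2.56% ± 0.182 in Wt, 2.49% ± 0.232 in *E1C5*Δ/Δ and 2.42% ± 0.192 in *E1C8*Δ/Δ libraries (SD, n = 3 each), and their libraries overlapped.

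**Figure D1:**
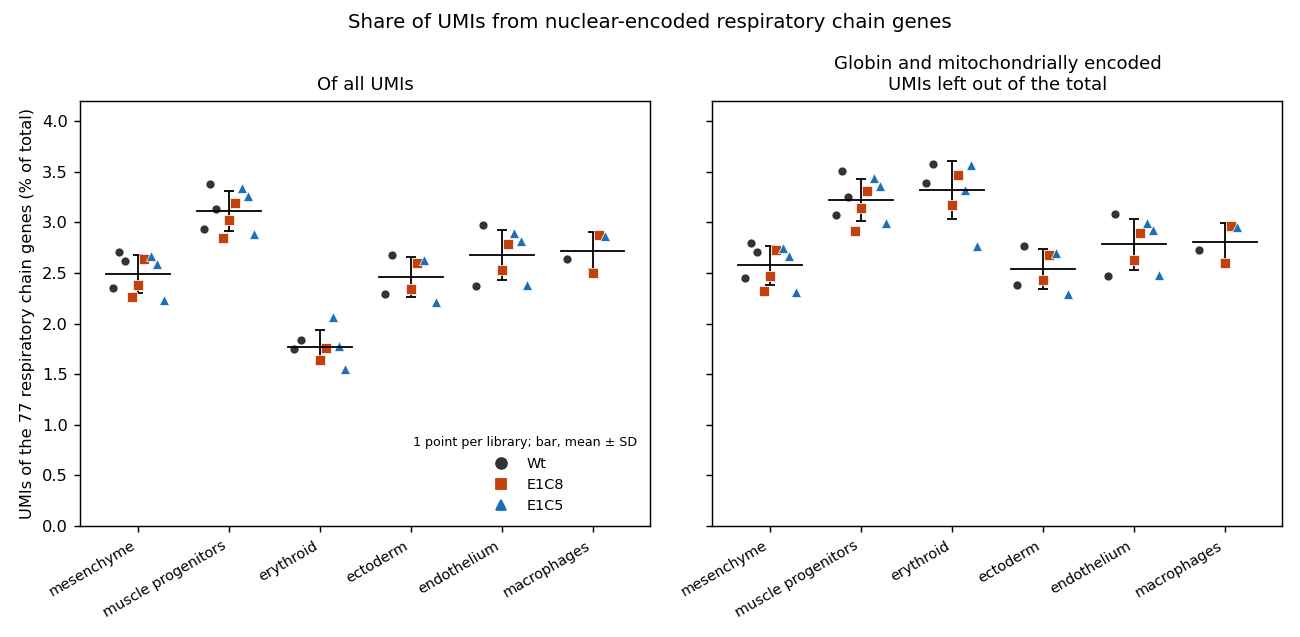
Percent of UMIs from the 77 respiratory chain genes by cell type, of all UMIs (left) and with globin and mitochondrially encoded UMIs left out of the total (right). Each point is 1 library, by genotype, and bars give the mean ± SD. Muscle progenitors lie at 2.85% to 3.38% of all UMIs, and erythroid cells go from the lowest mean, 1.77%, to the highest, 3.32%, with the change of total.

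The question of the cell type comparisons was which members differ between a lineage and the mesenchyme of the same embryo. UMIs were summed per library and type and tested with edgeR by quasi-likelihood, with the library as a block and adjustment by Benjamini-Hochberg over the 14414 genes that passed the filter, of which 73 were members. Of the other 4 members, *Cox6a2* had 0 of 1242701398 UMIs in mesenchyme, which allows a level of up to 0.00241 CPM, and *Cox8b* and *Cox8c*, muscle and testis forms of the same family, and *Cox7b2* were also too low for a test. *Cox7b2* had 178 UMIs in mesenchyme and 33 in muscle progenitors. *Cox6a2* had 8 UMIs in macrophages, in 4 of 4 libraries (1.61 CPM), and 1 UMI in muscle progenitors. Among the 73 members tested, the highest mean of CPM was in muscle progenitors for 43, in macrophages for 15, in ectoderm for 7, in endothelium for 6, in erythroid cells for 2 and in mesenchyme for 0. These levels are scaled to all UMIs, globin included.

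Muscle progenitors, the cells that migrate from the somites into the bud, had higher levels of most members of each complex. Of 73 members, 63 were higher (20.3% of all genes tested) and 2 lower (22.2%), with a median log2 fold change of 0.38 for members and -0.02 for all genes. All 8 complex III members tested, 28 of 33 of complex I, 10 of 14 of complex IV, 16 of 17 of complex V and *Ndufa4* were higher. *Cox8a*, the ubiquitous form of a small complex IV subunit, had the largest rise. Its level was between 724 and 945 (median 842) in mesenchyme and between 1223 and 1580.5 (median 1425) in muscle progenitors, in CPM over 9 libraries each. The groups did not overlap, and the log2 fold change was 0.83 ± 0.06, adjusted p = 5.85e-15 (± SE derived from the F statistic, p by edgeR's quasi-likelihood test with Benjamini-Hochberg adjustment). *Atp5o*, the stalk subunit OSCP of ATP synthase, was between 379 and 529.7 (median 469) in mesenchyme and between 627 and 794 (median 695) in muscle progenitors, again without overlap (log2 fold change 0.69 ± 0.09, adjusted p = 1.63e-08 by edgeR).

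Others in muscle progenitors rose by like amounts. *Uqcr11*, the smallest subunit of complex III, was between 201 and 429 (median 334) in mesenchyme and between 321 and 645 (median 519) in muscle progenitors, with a log2 fold change of 0.71 ± 0.06. *Uqcrq*, a ubiquinone-binding subunit of the same complex, was between 249.6 and 379 (median 332) in mesenchyme and between 370.3 and 561 (median 497) in muscle progenitors (0.67 ± 0.06). *Atp5g1*, a gene of the c-ring, was between 278 and 512 (median 416) in mesenchyme and between 440.1 and 752 (median 601) in muscle progenitors (0.68 ± 0.06). The libraries of these 3 genes overlapped with mesenchyme, but each of the 5 genes was higher in 9 of 9 libraries than in the mesenchyme of the same library. The members that fell were complex IV paralogues. *Cox4i2* was between 4.40 and 14.3 (median 8.14) in mesenchyme and between 1.15 and 3.76 (median 1.85) in muscle progenitors, without overlap (-1.88 ± 0.22, adjusted p = 1.37e-09 by edgeR). *Cox6b2* was between 14.1 and 26.0 (median 18.4) in mesenchyme and between 7.04 and 12.7 (median 9.32) in muscle progenitors, without overlap (-0.88 ± 0.13, adjusted p = 5.67e-07 by edgeR). The mesenchyme list took 1.93 to 3.68 UMIs per 10000 in muscle progenitors and 17.4 to 21.2 in mesenchyme.

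Genes outside the member list moved with the members in muscle progenitors. All 4 genes of complex II were higher, as were 16 of 17 genes of the citric acid cycle, a list that holds these 4. Cytochrome c (*Cycs*, 0.82 on the log2 scale), 24 of 40 assembly factors and 52 of 80 cytosolic ribosomal protein genes were also higher, with 5 assembly factors lower. Of the 13 mitochondrially encoded genes, 5 were higher and 0 lower. Glycolytic genes were split, with 6 higher and 6 lower of 20.

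Erythroid cells at this stage are primitive red cells that still carry mitochondria, and globin fills a large part of their RNA. Their comparison with mesenchyme depended on the scaling more than any other. With TMM scaling, which sets the bulk of genes equal, 69 of 73 members were higher (35.4% of all genes) and 1 lower (42.1%), with a median log2 fold change of 0.94 for members against -0.16 for all genes. With scaling to all UMIs, 6 members were higher and 59 lower, with a median of -0.49 against -1.57 for all genes, of which 7.8% were higher and 81.8% lower. Relative to the median of all genes, the members stood 1.10 higher with the first and 1.08 higher with the second scaling. All 33 members of complex I had values above 0 with TMM scaling and 32 passed the test, as did all 8 of complex III, 12 of 14 of complex IV and 16 of 17 of ATP synthase.

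*Cox6b2* (ENSMUSG00000051811, chr7:4751792-4753094, minus strand, mm10), a paralogue of the complex IV subunit *Cox6b1* that is known from testis, was the member that differed most in erythroid cells. It was between 14.1 and 26.0 (median 18.4) in mesenchyme and between 78.7 and 162 (median 116) in erythroid cells, in CPM of all UMIs over 9 and 7 libraries, without overlap and higher in 7 of 7 libraries. The log2 fold change with TMM scaling was 4.06 ± 0.13, adjusted p = 7.01e-28 by edgeR. *Ndufs3*, a core subunit of complex I, was between 95.0 and 161 (median 125) in mesenchyme and between 133 and 212 (median 154) in erythroid cells, with a log2 fold change of 1.89 ± 0.07 on the TMM scale. *Uqcrq* of complex III was between 249.6 and 379 (median 332) in mesenchyme and between 385 and 535 (median 451) in erythroid cells (1.85 ± 0.07), without overlap. *Cox6a1*, the ubiquitous partner of *Cox6a2*, was between 202 and 326 (median 235) in mesenchyme and between 278 and 331 (median 292) in erythroid cells (1.74 ± 0.07), and *Ndufa5* of complex I was between 88.6 and 199.6 (median 149.6) in mesenchyme and between 122 and 221 (median 166) in erythroid cells (1.58 ± 0.07). Against the mesenchyme of the same library on the scale of all UMIs, the first 4 were higher in 7 of 7 and *Ndufa5* in 5 of 7 libraries, and the 5 calls were kept in 21 of 21 alternative settings, scaling to all UMIs included. *Cox4i2* was the member that fell. It was between 4.40 and 14.3 (median 8.14) in mesenchyme and between 0 and 0.989 (median 0.660) in erythroid cells, with 0 UMIs in 2 of 7 erythroid libraries, and a log2 fold change of -2.85 ± 0.37, adjusted p = 5.61e-09 by edgeR.

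The mesenchyme list took 0.328 to 1.18 UMIs per 10000 in erythroid cells. By TMM scaling all 13 mitochondrially encoded genes, 16 of 17 citric acid cycle genes, 27 of 40 assembly factors and all 80 ribosomal protein genes tested were higher as well, while of 20 glycolytic genes 6 were higher and 12 lower (median -0.42). As mean shares of all UMIs these lists were below mesenchyme, at 17.9% against 22.8% for ribosomal protein genes, 0.0919% against 0.164% for the citric acid cycle, 2.97% (range 1.84% to 5.41%) against 3.17% for mitochondrially encoded genes and 0.148% against 0.730% for glycolysis.

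**Figure D2:**
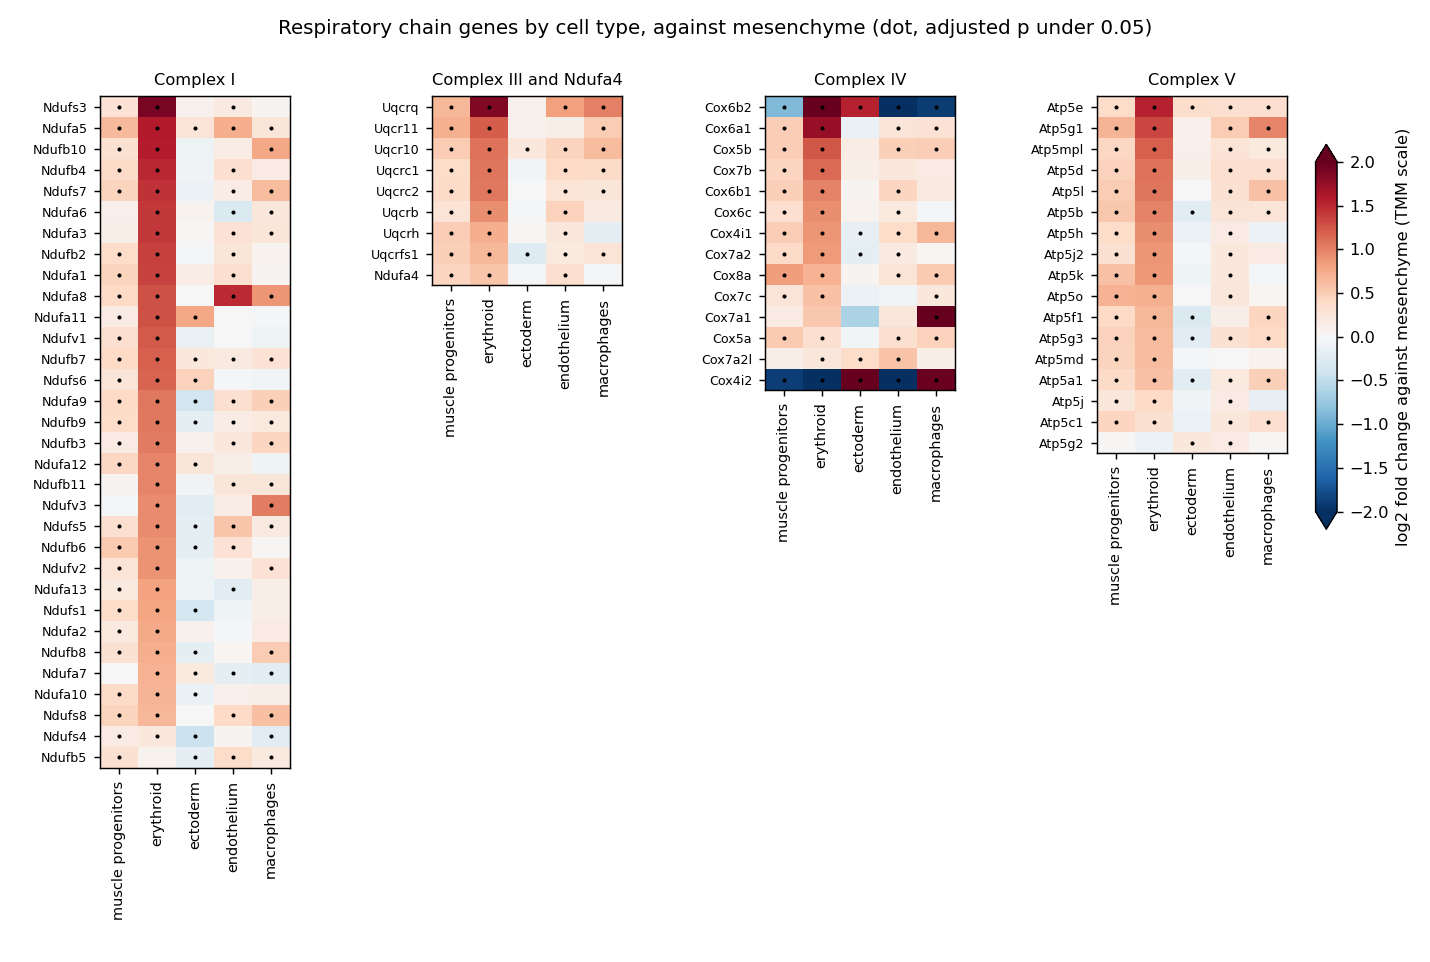
Log2 fold change of 72 of the 73 members tested against mesenchyme in 5 cell types (columns), by complex, with TMM scaling and colours limited to -2 and 2. Dots mark members past an adjusted p of 0.05. Over all 73, most members are higher in muscle progenitors (63) and erythroid cells (69), ectoderm is split (12 higher, 17 lower), and the rows of *Cox6b2* and *Cox4i2* go in opposite directions in erythroid cells and macrophages and in the same direction in the other 3 lineages.

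Ectoderm, the surface layer with the apical ridge that signals to the mesenchyme, was split, with 12 members higher (25.5% of all genes) and 17 lower (26%) and a median of -0.03 against -0.04 for all genes. DESeq2 called 22 higher (29.4% of all genes) and 10 lower (21.4%). Of complex I, 6 members were higher and 10 lower. The 2 largest changes were in complex IV paralogues. *Cox4i2* (ENSMUSG00000009876, chr2:152754173-152765037, plus strand) was between 37.1 and 60.8 (median 50.9) CPM in the 6 ectodermal sums, above all 9 mesenchymal values, with a log2 fold change of 2.69 ± 0.20, adjusted p = 2.53e-15 by edgeR. *Cox6b2* was between 40.1 and 67.9 (median 56.6), also above all mesenchymal values (log2 fold change 1.54 ± 0.15, adjusted p = 1.36e-11 by edgeR).

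In complex I the ectoderm was higher in an accessory subunit of the membrane arm, *Ndufa11*, which was between 198 and 265 (median 234) in mesenchyme and between 345 and 499 (median 369.6) in ectoderm (log2 fold change 0.78 ± 0.07), and in *Ndufs6* (0.47 ± 0.08). *Cox7a2l*, known as an assembly factor of supercomplexes, was between 226 and 273 (median 233) in mesenchyme and between 266 and 338 (median 323) in ectoderm (0.37 ± 0.08). *Ndufs1*, a core subunit of complex I that carries electrons, was lower, and was between 60.9 and 70.3 (median 68.0) in mesenchyme and between 46.5 and 54.4 (median 49.5) in ectoderm (-0.35 ± 0.07). *Ndufs4* (-0.43 ± 0.07), *Ndufa9* (-0.36 ± 0.07) and *Atp5f1*, a stalk subunit of ATP synthase (-0.28 ± 0.08), were also among the 5 largest falls. Without the library as a block the call of *Ndufs4* was lost (adjusted p = 0.058 by edgeR). All ectodermal values of *Ndufs1* lay below all mesenchymal values, and those of *Ndufa11* above them. Of 20 glycolytic genes, 16 were higher and 3 lower (median 0.44), whereas 2 of 17 citric acid cycle genes were higher and 7 lower. The mesenchyme list took 3.28 to 3.94 UMIs per 10000 in ectoderm.

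Endothelium had 50 members higher (34.4% of all genes) and 5 lower (36.6%), with a median of 0.21 against -0.05 for all genes. Scaled to all UMIs, the counts were 27 higher (28% of all genes) and 12 lower (43.7%) and the medians 0.06 and -0.20. *Ndufa8* (ENSMUSG00000026895, chr2:36036326-36049406, minus strand), an accessory subunit of complex I, stood apart. It was between 101 and 135 (median 122) in mesenchyme and between 233 and 343 (median 309) in endothelium CPM, without overlap, and the log2 fold change was 1.49 ± 0.06, adjusted p = 1.43e-23 by edgeR. Macrophages, at 193, 225, 206 and 177 CPM, were also above all mesenchymal values (0.89 ± 0.08, adjusted p = 2.54e-12 by edgeR). The level in muscle progenitors, between 130.2 and 168 (median 142), was higher in 9 of 9 libraries than in the mesenchyme of the same library (0.40 ± 0.06, adjusted p = 2.16e-07 by edgeR). In ectoderm, at between 88.7 and 136 (median 110.3), it was higher in 3 of 6 libraries and the test was not passed, and in erythroid cells, at between 84.5 and 125 (median 103) CPM of all UMIs, it was lower in 6 of 7 libraries on this scale but higher on the TMM scale (1.27 ± 0.06, adjusted p = 3.64e-21 by edgeR).

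*Uqcrq* was between 249.6 and 379 (median 332) in mesenchyme and between 437 and 596 (median 515) in endothelium, without overlap (log2 fold change 0.81 ± 0.07). *Ndufa5* was between 88.6 and 199.6 (median 149.6) in mesenchyme and between 153 and 284 (median 211) in endothelium, with overlap (0.72 ± 0.07). *Cox7a2l* (0.58 ± 0.08) and *Ndufs5* (0.55 ± 0.06) were the other members with the largest rises in endothelium. The paralogues fell furthest. *Cox4i2* was between 0.231 and 2.70 (median 1.20) (-2.46 ± 0.34, adjusted p = 2.88e-08 by edgeR) and *Cox6b2* was between 1.39 and 5.07 (median 4.05) CPM in endothelium (-2.16 ± 0.21, adjusted p = 5.35e-12 by edgeR), both below all mesenchymal values. Smaller falls were those of the complex I subunits *Ndufa6* (-0.29 ± 0.07), *Ndufa13* (-0.22 ± 0.05) and *Ndufa7* (-0.20 ± 0.07). Without the library as a block these smaller falls were not called, with adjusted p of 0.104, 0.143 and 0.215 by edgeR. The mesenchyme list took 0.375 to 1.65 and the erythroid list 5.21 to 75.3 UMIs per 10000 in endothelium (mesenchyme 3.16 to 16.2), and the part of erythroid RNA in these values was not tested. Of 17 citric acid cycle genes 11 were higher and 0 lower.

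Macrophages came from 4 libraries, which together held 121 of their cells. Values listed here run in the order Wt replicate 1, *E1C8*Δ/Δ replicates 2 and 3, *E1C5*Δ/Δ replicate 1. Of 73 members 41 were higher (29.8% of all genes) and 3 lower (33.6%), with a median of 0.21 against -0.14 for all genes, and scaled to all UMIs 26 were higher (25.4%) and 14 lower (39.2%) with medians of 0.06 and -0.31. *Cox7a1* (ENSMUSG00000074218, chr7:30184144-30186078, plus strand), the heart and muscle form of a small complex IV subunit, was at 5.58, 8.92, 6.92 and 7.96 CPM in the 4 libraries, from 36 UMIs, and between 0.354 and 1.09 (median 0.640) in mesenchyme. The log2 fold change was 3.42 ± 0.41, adjusted p = 1.41e-09 by edgeR. *Cox4i2* was at 43.3, 32.3, 21.9 and 28.4 CPM (1.97 ± 0.28, adjusted p = 1.04e-07 by edgeR), above all mesenchymal values. *Ndufv3*, a subunit of the NADH-binding part of complex I, was between 96.3 and 178 (median 126) in mesenchyme and 218, 181, 242 and 281 in the macrophage libraries (1.02 ± 0.11), without overlap. *Uqcrq* was between 249.6 and 379 (median 332) in mesenchyme and 599, 489, 619 and 687 in the macrophage libraries (1.00 ± 0.08), and *Atp5g1* was between 278 and 512 (median 416) in mesenchyme and 786, 616, 763 and 859 in the macrophage libraries (0.97 ± 0.09). *Cox6b2* (-1.91 ± 0.40), *Ndufa7* (-0.22 ± 0.09) and *Ndufs4* (-0.21 ± 0.09) were lower. The calls of *Ndufa7* and *Ndufs4* were lost in 9 and 7 of 21 alternative settings. Of 17 citric acid cycle genes 14 were higher and 0 lower, and of 20 glycolytic genes 12 were higher and 2 lower (median 0.68). The mesenchyme list took 0.474 to 1.69 and the erythroid list 4.36 to 13.1 UMIs per 10000. The megakaryocyte list took 0.288 to 3.04 (median 1.17) in macrophages and 0.00954 to 0.0384 in mesenchyme, and the endothelial list 0.781 to 0.875 against 0.154 to 0.208. The part of RNA of these types in the macrophage values, *Cox7a1* included, was not tested.

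Paralogues of 1 subunit can be compared within a library without any scaling. *Cox4i2* made up 0.971% ± 0.377 of the *Cox4i1* and *Cox4i2* UMIs in mesenchyme (SD, n = 9), 5.92% ± 0.693 in ectoderm (n = 6) and 2.29% ± 0.586 in macrophages (n = 4), and it was above the mesenchyme of the same library in 6 of 6 and 4 of 4 libraries. It was 0.178% in muscle progenitors, 0.134% in endothelium and 0.0826% in erythroid cells. *Cox6b2* made up 3.59% ± 0.937 of *Cox6b1* and *Cox6b2* UMIs in mesenchyme, 22.9% ± 6.23 in erythroid cells (range 14.4% to 33.6%, higher in 7 of 7 libraries) and 9.40% ± 1.77 in ectoderm, but 1.40% in muscle progenitors, 0.877% in macrophages and 0.593% in endothelium. Ectoderm thus held more of both paralogues than mesenchyme, and muscle progenitors and endothelium less of both. *Cox7a1* made up 0.910% of the *Cox7a1*, *Cox7a2* and *Cox7a2l* UMIs in macrophages and 0.0892% in mesenchyme.

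**Figure D3:**
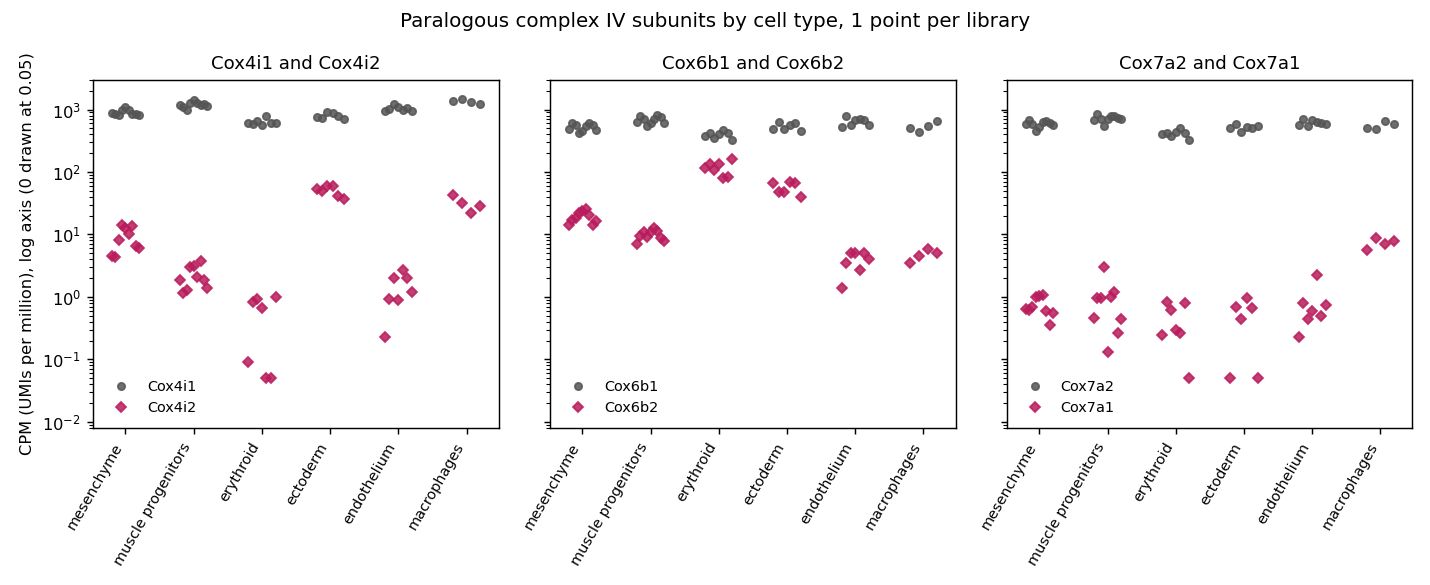
CPM of 3 pairs of complex IV paralogues by cell type on a log axis, 1 point per library, with values of 0 drawn at 0.05. *Cox4i1*, *Cox6b1* and *Cox7a2* lie at the top of each panel in every type, while *Cox4i2* is highest in ectoderm (37.1 to 60.8), *Cox6b2* in erythroid cells (78.7 to 162.1) and *Cox7a1* in macrophages (5.58 to 8.92).

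*Atp5g1*, *Atp5g2* and *Atp5g3* encode the same mature c subunit of ATP synthase with different import sequences. In mesenchyme they gave 24.7%, 51.3% and 24.0% of their summed UMIs. The part of *Atp5g1* was 31.6% in muscle progenitors, 43.6% in erythroid cells, 37.0% in macrophages, 29.9% in endothelium and 25.7% in ectoderm. *Atp5g2* had the largest mean part in every type but erythroid cells, where it was 31.4%, although in macrophages it was above *Atp5g1* in only 2 of 4 libraries, and *Atp5g3* stayed between 19.2% and 26.6%. The percentage of *Atp5g1* was higher than in the mesenchyme of the same library in 9 of 9 muscle progenitor, 7 of 7 erythroid, 7 of 7 endothelial, 4 of 4 macrophage and 3 of 6 ectodermal sums.

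Regions of the mesenchyme were taken by 3 further marker gates, each in 9 libraries. These gave 3247 core cells with chondrogenic markers (*Sox9*, *Col2a1*, *Sox5*, *Sox6*), 1517 distal cells (*Hoxa13*, *Hoxd13*, *Tfap2b*, *Jag1*) and 5893 peripheral cells (*Asb4*, *Lhx2*, *Lhx9*, *Msx1*). A gate set a minimum for the summed UMIs of its own list and maxima for the other lists. It asked for no minimum number of genes detected. The core list took 10.3 to 13.7 UMIs per 10000 in core cells, and the peripheral list 21.1 to 25.2 in peripheral cells. Distal cells took 3.03 to 5.92 of the distal list, which took 0.0445 to 0.276 in core and peripheral cells, but more of the peripheral list (6.81 to 9.97). The paper reports lower distal and higher peripheral marker levels in the distal mesenchyme of both mutants, so gated cells can differ in make-up by genotype. Distal cells numbered 312, 446 and 61 in Wt, 24, 179 and 163 in *E1C8*Δ/Δ and 61, 57 and 214 in *E1C5*Δ/Δ libraries. Mesenchymal cells numbered 4376, 6550 and 768 in Wt, 500, 7162 and 5803 in *E1C8*Δ/Δ and 3285, 1805 and 6850 in *E1C5*Δ/Δ libraries. The members took like shares of UMIs, 2.43% in core, 2.45% in distal and 2.43% in peripheral cells. Core against distal cells had 12 members higher (33.5% of all 13111 genes tested) and 34 lower (33.4%), with medians of -0.06 for members and 0.01 for all genes, and scaled to all UMIs 25 were higher (39.1%) and 27 lower (27.9%). Core against peripheral cells had 8 higher (30.3%) and 32 lower (31.5%), or 21 (37%) and 23 (25%) scaled to all UMIs. Relative to the median of all genes, the median of members in core cells was -0.0734 against distal and -0.0713 against peripheral cells with TMM scaling, and -0.075 and -0.0697 with scaling to all UMIs. Distal against peripheral cells had 12 higher (19.3%) and 6 lower (17.8%), with a median of members of -0.0055 relative to all genes.

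*Cox4i2* had the largest change among the regions. It was between 1.62 and 5.48 (median 3.14) CPM in core cells, between 6.06 and 35.0 (median 9.78) in distal and between 6.29 and 19.8 (median 16.3) in peripheral cells (n = 9 each), and its part of the *Cox4i* pair was 0.332%, 1.78% and 1.56%. The order of the last 2 regions differed by genotype. In Wt libraries this percentage was lower in distal (mean 0.818%) than in peripheral cells (1.40%) in 3 of 3 libraries, and in *E1C8*Δ/Δ (2.64% and 1.71%) and *E1C5*Δ/Δ libraries (1.90% and 1.58%) it was higher in distal cells in 3 of 3 each, a difference that was not tested. In CPM the same held in 3 of 3 Wt and *E1C8*Δ/Δ libraries but in 2 of 3 *E1C5*Δ/Δ libraries. The percentages of distal and peripheral cells were close in *E1C5*Δ/Δ replicates 2 (1.115% and 1.103%) and 3 (1.286% and 1.142%). They were further apart in replicate 1 (3.306% and 2.491%). Gated cells can differ in make-up by genotype, as stated above, and the part of this in these orders was not tested. Over all 9 libraries *Cox4i2* differed between distal and peripheral cells by 0.04 ± 0.13, adjusted p = 0.838 by edgeR. Core cells were below both other regions of the same library in 9 of 9 libraries, with log2 fold changes of -1.9998 ± 0.17, adjusted p = 6.08e-11, against distal and -1.95 ± 0.15, adjusted p = 8.92e-12 against peripheral cells by edgeR. *Cox7a2l* was higher in core cells, at 36.2% of the *Cox7a* family against 24.0% in distal and 28.3% in peripheral cells, with a log2 fold change of 0.62 ± 0.04, adjusted p = 8.56e-13 against distal cells by edgeR. *Cox6b2* (0.59 ± 0.13), *Ndufa6* (0.23 ± 0.04) and *Cox4i1* (0.18 ± 0.04) were also higher in core than in distal cells.

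*Atp5g3* was between 333 and 412 (median 382) in core cells and between 455 and 517 (median 487) in distal cells, with a log2 fold change of -0.43 ± 0.03 for core against distal cells. *Cox5a*, a subunit of complex IV on the matrix side, was between 402 and 544 (median 457) in core cells and between 452 and 678 (median 568) in distal cells (-0.38 ± 0.04). *Uqcrq* (-0.35 ± 0.04) and *Ndufa5* (-0.35 ± 0.04) were lower in core cells as well. The libraries of both regions did not overlap for *Atp5g3* and overlapped for *Cox5a*, while the test compared regions within a library. Against peripheral cells, core cells were higher in *Cox7a1* (0.70 ± 0.26), *Cox7a2l* (0.37 ± 0.04), *Cox4i1* (0.16 ± 0.03), *Ndufs4* (0.13 ± 0.03) and *Ndufa6* (0.12 ± 0.04), and lower in *Ndufb4* (-0.31 ± 0.04), *Cox6b2* (-0.29 ± 0.10), *Cox5a* (-0.25 ± 0.04) and *Atp5g1* (-0.25 ± 0.03). In distal against peripheral cells *Atp5g3* (0.35 ± 0.03) and *Ndufs8* (0.28 ± 0.04), a core subunit of complex I, were higher, followed by *Ndufa5* (0.16 ± 0.04), *Uqcrq* (0.16 ± 0.04) and *Cox5a* (0.14 ± 0.04). *Cox6b2*, between 8.56 and 22.3 (median 11.5) in distal and between 15.6 and 33.6 (median 23.2) in peripheral cells, was lower in distal cells (-0.88 ± 0.12, adjusted p = 1.41e-06 by edgeR), with *Cox7a2l* (-0.25 ± 0.04), *Atp5g2* (-0.15 ± 0.03), *Ndufa6* (-0.11 ± 0.04) and *Ndufa8* (-0.09 ± 0.04). Of 19 alternative settings, 10 ended the call of *Ndufa6* (adjusted p up to 0.658) and 11 that of *Ndufa8* (up to 0.549) in distal against peripheral cells, most of them by leaving out 1 library. The calls of *Cox5a*, *Ndufa5* and *Uqcrq* there were lost in 4, 2 and 2 (up to 0.287, 0.59 and 0.274) and that of *Cox6b2* in core against peripheral cells in 6 of 19 (up to 0.243). The fall of *Cox6b2* also turned with the genotype, since its level was lower in core than in peripheral cells in 3 of 3 Wt (mean log2 ratio -0.56) and 2 of 3 *E1C8*Δ/Δ libraries and higher in 3 of 3 *E1C5*Δ/Δ libraries (0.34), a difference that was not tested. The part in this of a different make-up of the gated cells by genotype was not tested either. The rise of *Cox7a1* in core cells rested on 101 UMIs there, and its call was lost in 2 of 14 settings, with doublets kept and without *E1C8*Δ/Δ replicate 2 (adjusted p up to 0.141). Other members had 19 settings in this comparison, and in the rest of these *Cox7a1* gave no test result. Without the library as a block, the calls of *Cox4i1*, *Ndufs4*, *Ndufa6*, *Ndufb4* and *Atp5g1* in core against peripheral cells were lost too. Their adjusted p by edgeR rose to between 0.056 and 0.48. The calls of *Ndufa6*, *Cox4i1* and *Ndufa5* in core against distal and of *Atp5g2* in distal against peripheral cells were lost in that setting as well.

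Of the glycolysis genes, 16 of 20 were lower in core than in distal cells (median -0.99) and 3 higher, with 16 lower and 2 higher against peripheral cells (median -0.86). Their share of UMIs was 0.541% in core, 0.879% in distal and 0.825% in peripheral cells. *Cycs* was lower in core cells, at -0.87 against distal on the log2 scale, and assembly factors had 22 lower and 8 higher of 40. Of the mitochondrially encoded genes, 7 of 13 were higher in core cells and 2 lower.

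The genotype comparison asked whether the members differ between the tetradactyl mutants and Wt. In mesenchyme 16273 genes and 71 members were tested by edgeR with a mean per genotype. With both mutants together against Wt, 0 members were higher (0.67% of all genes) and 0 lower (1.54%), 8 had an unadjusted p under 0.05 (19.5% of all genes), and DESeq2 called 0 higher (2.35%) and 2 lower (3.75%). *E1C5*Δ/Δ against Wt had 0 higher (0.369%) and 0 lower (1.09%), with 2 members at an unadjusted p under 0.05 (14%) and 1 higher (1.2%) and 0 lower (2.48%) by DESeq2. *E1C8*Δ/Δ against Wt had 0 higher (3.61%) and 2 lower (5.84%), *Atp5k* and *Ndufa3*, with 22 at an unadjusted p under 0.05 (26.1%) and 2 higher (5.28%) and 10 lower (8.39%) by DESeq2. *E1C8*Δ/Δ against *E1C5*Δ/Δ, which shares the *E1C8*Δ/Δ libraries with it, had 2 higher (4.16%), *Uqcrc1* and *Cox7a1*, and 1 lower (5.36%), *Atp5k*, with 19 at an unadjusted p under 0.05 (26.9%) and 3 higher (5.93%) and 8 lower (7.95%) by DESeq2. The median log2 fold change of members was 0.02 in both mutants together, in *E1C5*Δ/Δ and in *E1C8*Δ/Δ against Wt, and -0.06 between the mutants.

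*Atp5k* (ENSMUSG00000050856, chr5:108433244-108434448, minus strand), the gene of the small subunit e of ATP synthase, was at 399.7, 580.0 and 533 CPM in Wt mesenchyme, 436, 372 and 312 in *E1C5*Δ/Δ and 168, 169.8 and 288 in *E1C8*Δ/Δ mesenchyme. All *E1C8*Δ/Δ libraries lay below all others, and the *E1C5*Δ/Δ libraries overlapped with Wt. The log2 fold change was -1.29 ± 0.25, adjusted p = 0.0128 for *E1C8*Δ/Δ against Wt by edgeR, 2.44-fold lower, and -0.92 ± 0.24, adjusted p = 0.0391 against *E1C5*Δ/Δ. For *E1C5*Δ/Δ against Wt it was -0.37 ± 0.24, adjusted p = 0.558 by edgeR. The call against Wt was lost without *E1C8*Δ/Δ replicate 1 or 2 or without both libraries of fewer than 1000 cells, with an adjusted p of at most 0.083, and the call against *E1C5*Δ/Δ in 6 of 20 alternative settings (up to 0.157), among them without replicate 1 or 2 of either mutant. Muscle progenitors had the same order, with 560.1, 811 and 718 CPM in Wt, 629, 535 and 462 in *E1C5*Δ/Δ and 241, 253 and 392 in *E1C8*Δ/Δ, and it was the 1 member lower there in the test of both mutants pooled against Wt (-0.77 ± 0.18, adjusted p = 0.0385 by edgeR), a call that was lost in 10 of 13 alternative settings. The *E1C5*Δ/Δ libraries overlapped with Wt there too. In the annotation 1 pseudogene is named after *Atp5k*, which was not among the features counted, so that reads from near-identical copies cannot be told apart.

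*Ndufa3* of complex I was at 121, 173 and 175 CPM in Wt, 144, 109 and 104 in *E1C5*Δ/Δ and 80.7, 77.8 and 117 in *E1C8*Δ/Δ mesenchyme, with a log2 fold change of -0.78 ± 0.22, adjusted p = 0.0457 for *E1C8*Δ/Δ against Wt by edgeR. The call was lost in 8 of 20 alternative settings (adjusted p up to 0.228). *Uqcrc1*, a core protein of complex III, was at 129, 125 and 166 in Wt, 108, 114 and 119 in *E1C5*Δ/Δ and 167, 151 and 176 in *E1C8*Δ/Δ libraries. The mutants did not overlap with each other and *E1C8*Δ/Δ overlapped with Wt, and the mutants differed by 0.45 ± 0.11, adjusted p = 0.0309 by edgeR. *Cox7a1* was at 0.640, 0.615 and 0.678 CPM in Wt, 0.603, 0.354 and 0.550 in *E1C5*Δ/Δ and 1.01, 1.03 and 1.09 in *E1C8*Δ/Δ libraries, with those of *E1C8*Δ/Δ above all others and a difference between mutants of 0.96 ± 0.22, adjusted p = 0.0210 by edgeR. Leaving out 1 library ended the calls of *Cox7a1* and *Uqcrc1* between the mutants for 5 and 6 of the libraries, with adjusted p up to 0.092 and 0.119. *Cox4i2* was higher in each *E1C8*Δ/Δ library (14.3, 12.8 and 10.3) than in Wt (4.52, 4.40 and 8.14), but its log2 fold change of 1.13 ± 0.33, adjusted p = 0.0527 did not pass the threshold by edgeR, nor did that of *E1C5*Δ/Δ (13.8, 6.48 and 6.15 CPM, 0.75 ± 0.32, adjusted p = 0.327).

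**Figure D4:**
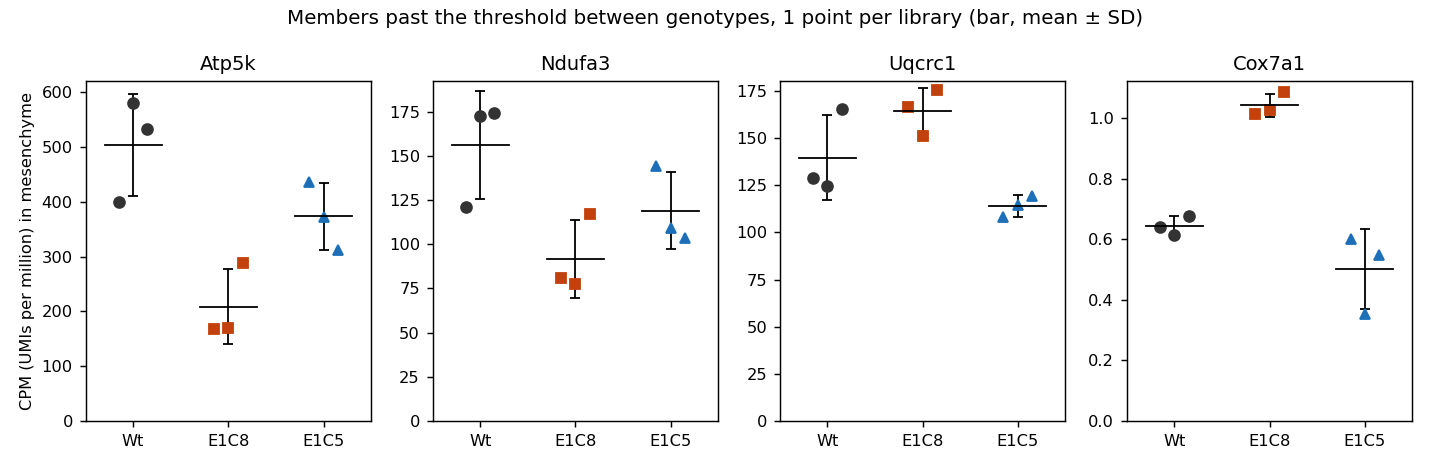
CPM in mesenchyme of the 4 members past the threshold in a comparison of genotypes, 1 point per library, with lines at the mean and bars of ± SD (n = 3). *Atp5k* is at 168.2 to 288 in the *E1C8*Δ/Δ libraries and at 312 or more in all others, and *Cox7a1* lies near 1 CPM or below in every library.

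In libraries, 20 of 72 members with a mean of at least 5 CPM were higher in all *E1C8*Δ/Δ than in all Wt mesenchyme (19% of all genes) and 8 lower (19.1%). In *E1C5*Δ/Δ, 2 were higher (4.66%), *Atp5g1* and *Ndufb8*, and 2 lower (8.63%), *Ndufs6* and *Uqcrc1*. The 8 members below Wt in *E1C8*Δ/Δ were *Atp5j2*, *Atp5k*, *Cox5b*, *Ndufa2*, *Ndufa3*, *Ndufa5*, *Uqcr10* and *Uqcr11*. X and Y genes were kept in these counts, though sex is not balanced over the genotypes, and the 20 include the X-linked *Ndufb11*. A difference by transcript length was seen beside these counts, at limits of 600 and 1000 bases set after the values had been viewed. Length was that of the longest transcript marked as principal (APPRIS) in GENCODE M21, or else of the longest coding or longest transcript. By this rule *Atp5g1* (4715 bases) and *Ndufb2* (4371 bases) count as long. Which isoforms the cells express was not tested. Against the mean of Wt, the 18 members with a spliced length under 600 bases had median log2 ratios of -0.46, -0.25 and 0.03 in the *E1C8*Δ/Δ libraries, and the 27 members over 1000 bases 0.18, 0.12 and 0.12. In other genes the medians were -0.28, -0.18 and 0.05 for 118 short and 0.04, -0.01 and -0.06 for 8819 long genes. *E1C8*Δ/Δ replicates 1 and 2 were low and replicate 3 was near 0 in short genes of both kinds. The Wt libraries were spread as well, with -0.17, 0.13 and 0.03 in short members and -0.11, 0.15 and -0.05 in other short genes. *E1C5*Δ/Δ replicate 3 had -0.26 in short and -0.17 in long members. Both members called in *E1C8*Δ/Δ against Wt are short, *Atp5k* with 371 and *Ndufa3* with 515 bases, and both calls were lost without replicate 1 or without replicate 2 of *E1C8*Δ/Δ. The part of transcript length in the genotype values was not tested.

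**Figure D5:**
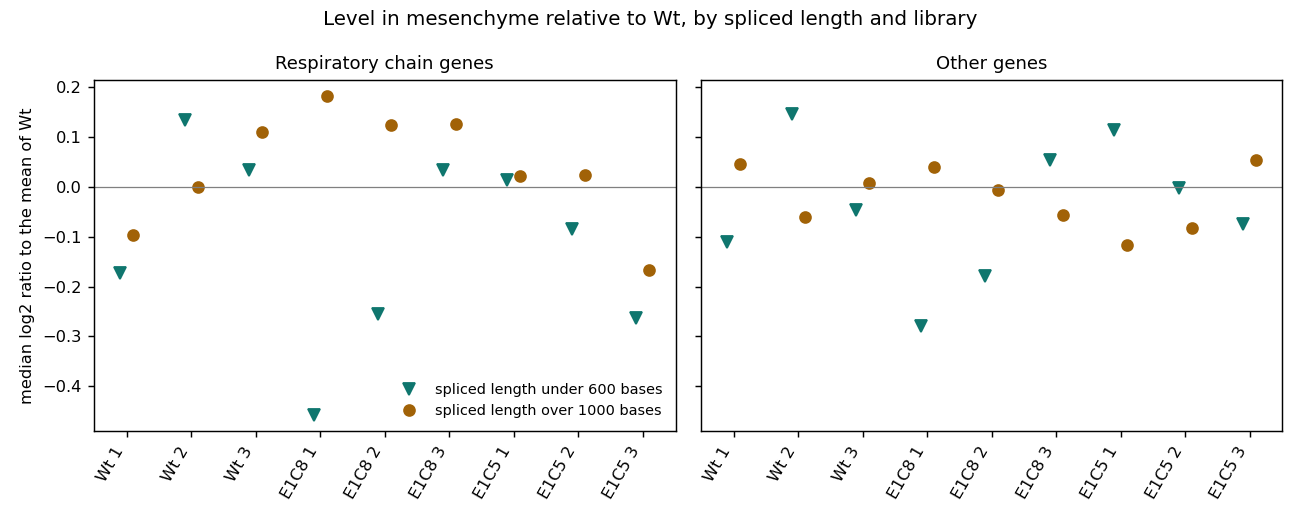
Median log2 ratio of the mesenchymal level to the mean of Wt in each library, for genes with a spliced length under 600 bases (triangles) and over 1000 bases (circles), in respiratory chain genes (left) and other genes (right). Short members lie at -0.46 and -0.25 in *E1C8*Δ/Δ replicates 1 and 2, and the short genes on the right at -0.28 and -0.18 in the same libraries.

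In the other lineages, both mutants against Wt had 0 members higher in erythroid cells (0% of all genes), ectoderm (0%) and endothelium (0%), and 0 lower (0.0103%, 0% and 0.00933%), by edgeR. Muscle progenitors had 0 higher (0.468%) and 1 lower (1.18%). At an unadjusted p under 0.05 there were 2 members in erythroid cells (3.59% of all genes), 11 in muscle progenitors (15%), 1 in ectoderm (4.57%) and 1 in endothelium (5.66%). DESeq2 called 0 members in these lineages, where, in this order, 0.0207%, 0.618%, 0.00991% and 0.0187% of all genes were higher and 0.0207%, 1.2%, 0.0297% and 0.0373% lower. Macrophages had only 1 Wt library, and their counts by genotype are not given. *Atp5k* had log2 fold changes of -0.77 in erythroid cells, -0.80 in ectoderm and -0.76 in endothelium, with adjusted p of 0.69 or more by edgeR. Of the lists outside the members, the mitochondrially encoded genes, glycolysis and the citric acid cycle had no call in mesenchyme of both mutants together or *E1C5*Δ/Δ against Wt. In *E1C8*Δ/Δ against Wt (3.61% of all genes higher, 5.84% lower), 1 of 4 complex II genes was higher. It is also the 1 of 16 citric acid cycle genes that was higher, since that list holds complex II. Of assembly factors 3 of 40 and of regulators of mitochondrial gene expression 1 of 14 were higher. Of ribosomal protein genes 7 of 76 were lower and 1 higher.

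The 3 X-linked members, *Ndufb11*, *Ndufa1* and *Cox7b*, entered no genotype test. *Ndufa1*, an accessory subunit of complex I, was at 99.8, 155 and 135 CPM in Wt, 132, 111 and 90.6 in *E1C5*Δ/Δ and 74.9, 82.0 and 115 in *E1C8*Δ/Δ mesenchyme, and the libraries overlapped. *Ndufb11* was at 222, 237 and 246 in Wt, 253, 267 and 211 in *E1C5*Δ/Δ and 254, 264 and 259 in *E1C8*Δ/Δ mesenchyme, where all *E1C8*Δ/Δ libraries lay above Wt. *Cox7b* was at 387, 496 and 405 in Wt, 892, 414 and 583 in *E1C5*Δ/Δ and 362, 399.7 and 494 in *E1C8*Δ/Δ mesenchyme, so that *E1C5*Δ/Δ replicate 1 lay above all other libraries. The same library was highest in muscle progenitors, with 1053 CPM. *Ndufa4* overlapped between genotypes, at 681, 806 and 717 CPM in Wt, 786, 842 and 603 in *E1C5*Δ/Δ and 627, 725 and 778 in *E1C8*Δ/Δ mesenchyme. *Ndufb8* was at 358, 381 and 384 in Wt and 507, 599 and 412 in *E1C5*Δ/Δ mesenchyme, without overlap, but its log2 fold change of 0.50 ± 0.15, adjusted p = 0.141 did not pass the threshold by edgeR. Of the 77 members, 4 have a pseudogene named after them in the annotation (*Atp5c1*, *Uqcrh*, *Atp5k* and *Atp5l*), none of it among the features counted. Another coding gene on the same strand overlaps 6 members (*Ndufb2*, *Ndufa13*, *Cox4i1*, *Ndufb9*, *Ndufb8* and *Atp5md*). The counts of all these members may be affected, which was not tested.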

How the data were processed

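Single cells of 1 pair of forelimb buds per library were captured with the Chromium 3′ v3.1 kit. For every library, the authors deposited raw counts, the UMIs per gene and called barcode, made with Cell Ranger 6.0.1 and mm10 per the submitters' processing notes, neither normalized nor filtered. The limits of the study were applied to cells, over 2500 genes, under 200000 UMIs and under 10% of UMIs from mitochondria. Doublets were called in each library from the artificial doublets found near a cell, at an assumed 0.8% per 1000 barcodes. Cells were assigned by minimum UMIs per 10000 of marker lists. Doublet calls took 60.3% of cells past the gates of more than 1 lineage and 12.3% of other cells. The 1089 mixed cells still left after this and 605 ungated cells were not used, with 24 megakaryocytes and 3 neural crest cells.

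UMIs were summed per library and type and tested with edgeR 4.0.16 by quasi-likelihood after filterByExpr and TMM scaling, in R 4.3.3, with Benjamini-Hochberg adjustment over all genes tested and a threshold of 0.05. Cell type and region comparisons had the library as a block. Genotype comparisons had a mean per genotype without X and Y genes. The SE given with an edgeR log2 fold change is its absolute value divided by the square root of the F statistic, and is approximate. DESeq2 1.42.0 was an alternative. Other tools were limma 3.58.1, Python 3.11.15, numpy 2.4.6, pandas 2.3.3, scipy 1.17.1, scikit-learn 1.9.0 and matplotlib 3.10.9. The tests were also run on simulated counts, with an outcome that is not given here. Chromosomal positions came from GENCODE M21 (mm10). A level of 0 allows up to 3 UMIs, and this limit covers counting error only.

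Members, lists and comparisons were chosen with earlier results of these data known. Genes named with values are, per comparison, up to 5 members per direction that passed the threshold with the largest changes, the member with the highest level in Wt mesenchyme per complex, paralogue sets, *Ndufa4* and X-linked members. The values of 1 member are not reported here. The alternatives with 2 changes of scaling, without both small libraries, and the length classes were chosen after seeing the data, and *Cox4i2*, *Ndufa8*, *Ndufb8* and *Atp5k* in comparisons where this rule does not name them were named after their values were seen. The deposited 4 transgene features entered no test.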

Additional observations from a re-analysis of the deposited data

Results flagged for a closer look

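In mesenchyme, 3 of the 71 members tested differed between the mutants, *E1C8*Δ/Δ against *E1C5*Δ/Δ, in the test of that difference. Of these, 2 were higher (4.16% of all genes tested) and 1 lower (5.36%). The log2 fold change was 0.96 for *Cox7a1*, a complex IV paralogue at about 1 CPM (UMIs scaled to a total of 1000000) or less, 0.45 for *Uqcrc1*, a core protein of complex III, and -0.92 for *Atp5k*, a small subunit of ATP synthase. These calls were lost in 5, 6 and 6 of 20 alternative settings. In 2 further cases every library of one genotype went against every library of another in CPM, among 192 pairs of genotypes looked at in single members, and these differences were not tested. The mean log2 ratio of CPM in distal to peripheral cells for *Cox4i2*, a paralogue known for its response to low oxygen, was -0.67 in Wt and 0.58 in *E1C8*Δ/Δ libraries, a difference of 1.25. As a percentage of the *Cox4i* pair, *E1C5*Δ/Δ libraries went against Wt too, in 3 of 3 libraries, whereas in CPM 2 of 3 did. In *E1C5*Δ/Δ replicate 2 the percentages were near equal, at 1.115% in distal and 1.103% in peripheral cells. The ratio in core to peripheral cells for *Cox6b2* was -0.56 in Wt and 0.34 in *E1C5*Δ/Δ libraries, a difference of 0.90 (n = 3 each). The distal and peripheral gates take marker genes that the paper reports as changed in the mutants, so the cells compared can differ in make-up by genotype. In 50 groups of 4 to 9 libraries, each 1 lineage or region with all genotypes together, no library was far from the others by Dixon's limit, where chance gives about 1 in 20. Groups of 3 libraries of 1 genotype are too small for this and were not tested. The 50 groups did not cover every member in every lineage. *Cox7b* in mesenchyme, for instance, had *E1C5*Δ/Δ replicate 1 above all other libraries.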

How the results depend on the processing

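Apart from leaving out a library, 236 counts of calls stayed within 1.5 times and 70 moved, and 794 calls of single members were kept and 55 lost. The members higher and lower in erythroid cells were 6 (7.8% of all genes) and 59 (81.8%) scaled to library size only, with the median reversed to -0.49. With globin and mitochondrially encoded genes left out as well, they were 54 (19.8%) and 9 (60.9%). The erythroid share of members was 3.32% without globin and mitochondrially encoded UMIs. DESeq2 called 2 lower in both mutants against Wt, 2 higher and 10 lower in *E1C8*Δ/Δ, 1 higher in *E1C5*Δ/Δ and 8 lower in *E1C8*Δ/Δ against *E1C5*Δ/Δ, 2 lower in erythroid cells, 22 higher and 10 lower in ectoderm with the median reversed to 0.0395, 1 lower in macrophages, 14 higher in core against peripheral cells and 0 lower in muscle progenitors of both mutants. The cause of these differences between settings was not tested. For the DESeq2 calls in erythroid cells, macrophages and core against peripheral cells the share of all genes is not given here.

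Scaled to library size only, 1 member was lower (1.17% of all genes) in both mutants against Wt. In *E1C8*Δ/Δ against Wt, 1 was higher (3.13%) and 5 lower (3.09%), and between the mutants 5 were higher (5.11%). Endothelium had 27 higher (28%) and 12 lower (43.7%), and macrophages 26 (25.4%) and 14 (39.2%). Core cells had 25 higher against distal (39.1%) and 21 against peripheral cells (37%). With globin and mitochondrially encoded genes left out too, there were 27 lower in ectoderm (28.5% of all genes). Endothelium then had 28 higher (28.8%) and 12 lower (44.7%), and macrophages 26 higher (26.4%) and 14 lower (40.4%). Without the filter on low counts, 1 member was higher and 1 lower in both mutants, 2 higher and 5 lower in *E1C8*Δ/Δ, 4 lower between the mutants, 3 lower in erythroid cells, 6 higher in ectoderm, 5 lower in macrophages and 6 higher in distal against peripheral cells. Of all genes, that fit called 2.23% higher and 3.66% lower in *E1C8*Δ/Δ against Wt, 15.5% and 17.7% in ectoderm and 8.83% and 11.3% in distal against peripheral cells. Without the library as a block, 6 were higher (22.7% of all genes) and 8 lower (20.6%) in ectoderm, 30 (32.2%) and 2 (32.4%) in endothelium, 1 lower (31.9%) in macrophages, 2 higher (25.5%) and 11 lower (25.6%) in core against distal, 1 (19.3%) and 3 (19.9%) in core against peripheral and 2 (6.5%) and 2 (9.04%) in distal against peripheral cells. With doubled gates, 2 were lower in erythroid cells (42.1%), 19 lower in core against distal (21.4%) and in core against peripheral cells (20.3%), 3 higher (8.84%) and 3 lower (8.76%) in distal against peripheral cells and 0 lower in muscle progenitors of both mutants. A minimum of 1000 genes gave 1 lower in *E1C8*Δ/Δ against Wt, 2 lower in erythroid cells and 3 lower in distal against peripheral cells. Less than 5% mitochondrial UMIs gave 1 higher in *E1C8*Δ/Δ, no mitochondrial filter 2 lower in erythroid cells, and no doublet removal 2 lower in erythroid cells and between the mutants. Without both small libraries, 0 were lower in *E1C8*Δ/Δ against Wt, between the mutants and in muscle progenitors of both mutants, 1 was lower in macrophages and 6 were higher in distal against peripheral cells. Where no percentage is given for a count in this paragraph, the share of all genes called in that fit is not reported here.

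Replicate numbers did not pair the libraries (correlations of deviations of -0.152 to 0.0933), and a replicate block gave 1 lower in *E1C8*Δ/Δ against Wt, 0 between the mutants and 0 in muscle progenitors. For these block fits the share of all genes called is not reported here. Leaving out 1 library, members higher ranged from 0 to 1 and lower from 0 to 1 in both mutants against Wt, 0 to 4 and 0 to 10 in *E1C8*Δ/Δ (10 lower without *E1C8*Δ/Δ replicate 3, with 1.85% of all genes, 0 without replicate 1 or 2, with 1.37% and 1.35%, and 5 without *E1C5*Δ/Δ replicate 3, with 7.32%), 0 to 1 and 0 in *E1C5*Δ/Δ, and 0 to 3 and 0 to 5 between the mutants. They ranged from 66 to 69 and 1 to 2 in erythroid cells, 58 to 63 and 2 in muscle progenitors, 11 to 14 and 12 to 20 in ectoderm, 37 to 54 and 5 to 6 in endothelium and 32 to 39 and 1 to 5 in macrophages. They were 10 to 13 and 29 to 36 in core against distal, 4 to 10 and 24 to 33 in core against peripheral and 5 to 12 and 3 to 7 in distal against peripheral cells, and 0 to 2 lower in muscle progenitors of both mutants. Of all genes, the same fits called 0.872% to 4.91% higher and 1.35% to 7.32% lower in *E1C8*Δ/Δ against Wt, 1% to 5.9% and 0.865% to 7.15% between the mutants, 32.1% to 35.4% and 40.5% to 44.6% in erythroid cells, 15.5% to 20.2% and 20% to 28.7% in muscle progenitors, 23.8% to 24.8% and 23.8% to 27.5% in ectoderm, 31.4% to 34.3% and 35.1% to 38.8% in endothelium, 26.3% to 30.6% and 29.9% to 35.7% in macrophages, 31.4% to 34.5% and 29.5% to 34.1% in core against distal, 28.3% to 30.5% and 27.4% to 31.4% in core against peripheral and 14.5% to 19.8% and 15.2% to 18.3% in distal against peripheral cells. The same fits called 0.186% to 1.85% higher and 0.503% to 2.93% lower in both mutants against Wt and 0.0969% to 0.436% and 0.333% to 1.32% in *E1C5*Δ/Δ. In muscle progenitors of both mutants they called 0.462% to 1.41% lower. For macrophages of both mutants, block fits and fits without any of the 4 libraries used could not be run, since too few libraries were left. Leaving out a library without macrophage sums changed nothing there. Depth limits *Cox6a2*, *Cox8b*, *Cox8c*, *Cox7b2* and, in small types, *Cox7a1* and *Cox4i2*.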
